A study of Arabidopsis thaliana with 4 samples.

Results

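The early response of Arabidopsis thaliana rosette leaves to abscisic acid (ABA) was described in plants that carried the empty vector pCP60 in the Col-0 background. It rests on 2 of the 4 arrays of the study, the vector plants sprayed with ABA and the vector plants sprayed with the mock solution, chosen by their titles and source names. Of the 7322 genes that could be compared, 355 had at least 2 times the mock signal after the ABA spray and 390 had no more than 0.5 times that signal. With 1 array a side there is no replicate error, so every difference below is a value without a test. Its reliability was judged mainly from signal and from recurrence in a second genotype. Separate probe sets of the same gene and other processing settings were also looked at.

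All plants were 3 weeks old and grown in soil. Vector plants were sprayed with water holding 0.07% ethanol (mock) or with 100 µM ABA at the same ethanol concentration, and leaves were taken 90 min later. The other pair of arrays came from a single line, number 52, that overexpresses the dehydration-induced gene ERD15, in Col-0, under the same mock and ABA sprays. Leaves of 3 plants were pooled for the ABA sample of the vector plants and for both overexpressor samples, while nothing is said of a pool for the mock sample of the vector plants. An attribute of the overexpressor samples reads as a gene knock-out, which goes against their titles and source names. The ERD15 transcript has no probe set of its own in the annotation used, so the genotype was taken as labelled. The overexpressor pair shares no array with the vector pair, and is used below only to see which differences came back.

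ABA is the hormone through which plants signal water shortage. Its receptors inhibit a group of protein phosphatases, which frees protein kinases to activate transcription factors of the bZIP family, and these switch on genes for protective proteins. In leaves it closes stomata and restrains growth, in which the loosening and cross-linking of the cell wall take part.

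The labelled tissue was checked against 4 leaf genes, which were among the brightest on both vector arrays. RCA, the activase of the carbon-fixing enzyme Rubisco, had a signal of 9006 on the mock array and 6908 on the ABA array. LHCB4.2, a light-harvesting protein of photosystem II, stood at 7639 and 6040.2. The guard cell regulator FMA was far dimmer, at 59.2 and 61.7, and no marker listed for roots, vessels, trichomes, flowers or seeds was measured. Since leaves were taken whole, fewer cells of a type and less RNA per cell cannot be told apart.

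The mock array of the vector plants stood somewhat apart from the other arrays. Its log2 signals correlated across genes with those of the others at 0.878 to 0.902, against 0.911 to 0.935 among the other 3 arrays. It also had 72 genes under the signal floor of 13.3, against 33 to 35 elsewhere. The control probe set for 25S ribosomal RNA read 1833 and 2109 on mock and ABA in vector plants, and 262 and 833 in the overexpressor. All 18 probe sets for bacterial and phage spike-in controls were lower on the ABA than on the mock array in vector plants, with a median log2 difference of -0.58, and all 18 were higher in the overexpressor, with 0.85. The part that these features have in the differences below was not tested. Across 6 reference genes the log2 difference between ABA and mock ran from -0.32 to 0.39, with none at 2-fold, and GAPC2, a glycolytic enzyme, was the highest of them at 2642 on mock and 3459.9 on ABA.

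A gene entered the comparison when its mean signal over the 4 arrays was at least 29.0, and signals under 13.3 were raised to that floor before the log2 difference was taken. Of all genes compared, 4.85% were called higher by 2-fold or more and 5.33% lower by as much. These shares are the background for every count within a gene list below. The median log2 difference over all genes was -0.09 and the median absolute deviation 0.316, and 10.2% of genes lay at 2-fold or beyond in either direction. At 4-fold there were 61 higher and 44 lower genes, and at 8-fold 8 higher and 3 lower. The higher genes were the brighter group, with a median signal on their brighter array of 108, against 70.6 for the lower genes and 94.1 for all genes. For 64 of the higher genes the mock signal lay under the floor, and for 33 of the lower genes the ABA signal did, so their folds are lower limits.

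**Figure D1:**
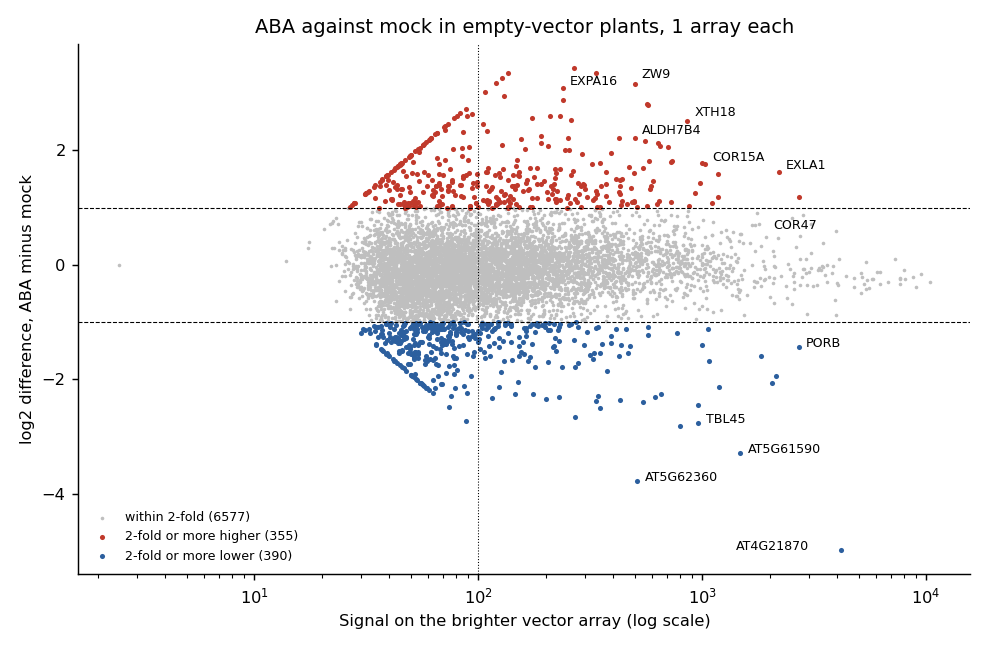
Each point is 1 of 7322 genes, with the signal on its brighter vector array on a log axis and the log2 difference of ABA minus mock on the vertical axis; dashed lines mark 2-fold and the dotted line a signal of 100. The straight edges at low signal are genes held at the floor, and the few bright genes far from 0 include AT4G21870 at -4.98 and ZW9 at 3.17.

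Genes of the ABA and dehydration response were higher with ABA as a group. Of 5 measured members, 3 were at least 2-fold higher, none was lower, and their median log2 difference was 1.52, beside -0.09 for all genes. COR15A, which encodes a protein of the chloroplast stroma that protects membranes during freezing and drying, read 305 on vector mock and 1033 on vector ABA, and 217 and 1044 on the overexpressor arrays. Both ABA arrays were thus alike and well above both mock arrays, with 3.39-fold in the vector plants. LTI30, a dehydrin, read 76.9 and 220.2 in vector plants and 83.6 and 211 in the overexpressor, again with no overlap between mock and ABA. COR47, another dehydrin, was already bright on vector mock at 1365 and reached 1924, a 1.41-fold difference, whereas the overexpressor arrays read 579 and 1985. The close relative of COR15A, COR15B, read 89.6 and 108 and stayed within 2-fold. AT3G02480, which belongs to the list by its locus, lay under the floor on vector mock and at 61.9 on vector ABA, at least 4.67-fold higher. Among 7 late-embryogenesis and dehydrin proteins, which include COR15A and LTI30, 2 were at least 2-fold higher and the median was 0.27. AT1G54410, the dehydrin HIRD11, was bright on all 4 arrays, at 2123 and 2072 in vector plants, with a log2 difference of -0.03. No gene of the lists for ABA receptors, their phosphatases and kinases, or ABA synthesis and breakdown was measured.

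Cell wall genes gave several of the clearest differences, in both directions. XTH18 encodes an enzyme that cuts and rejoins xyloglucan chains, and read 151 on vector mock and 858 on vector ABA, 5.70-fold higher. In the overexpressor it read 84.5 and 763, so that both ABA arrays stood far above both mock arrays. XTH33, an enzyme of the same family, went the opposite way, from 272 on mock to 79.2 on ABA, 3.43-fold lower, and from 165 to 29.3 in the overexpressor. The other 5 of the 7 family members stayed within 2-fold. Expansins loosen walls without cutting them, and 3 of 10 were at least 2-fold higher, with none lower and a median of 0.19. EXPA16 read 28.2 and 239 in vector plants and 30.2 and 193 in the overexpressor, and was 8.48-fold higher in the former. EXLA1, an expansin-like protein and the brightest of the family to differ, read 717 and 2201, 3.07-fold higher, and 1241 and 1894 in the overexpressor. EXLA2 was 3.01-fold higher but dim, at 22.3 and 67.0, and the lowest member, EXPA8, had a log2 difference of -0.98. Pectin methylesterases trim methyl groups from pectin. ATPMEPCRB, also named PME41, read 82.9 on vector mock and 576 on vector ABA, 6.95-fold higher, and 195 and 444 in the overexpressor. PME61 reached 2-fold, at 68.1 and 136, although in the overexpressor it was lower with ABA, at 125 and 79.7.

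Proteins of the TBL family acetylate wall polysaccharides, and 14 were measured, with 1 higher, 2 lower and a median of 0.05. TBL45 was bright on vector mock at 962 and read 143 on vector ABA, 6.74-fold lower and the lowest difference of the family. In the overexpressor it read 541 and 70.1. AT2G31110, annotated as TBL40, read 221 and 90.9, 2.43-fold lower, while TBL26 read 60.9 and 177, 2.92-fold higher. Of 9 genes for cellulose and wall glucan synthesis, CSLA03, a glucomannan synthase, was 2.91-fold lower at 329 and 113, and IRX15-L, which acts in xylan synthesis, was 2.45-fold higher at 31.4 and 76.9. Both kept their direction in the overexpressor, where CSLA03 read 193 and 96.4 and IRX15-L read 35.5 and 100.58.

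Genes of protein turnover differed mainly among the U-box ubiquitin ligases, which mark proteins for breakdown. Of 8 measured, 3 were at least 2-fold higher and 1 lower, with a median of 0.41. PUB19, a ligase known to dampen ABA responses, read 34.6 on vector mock and 210.0 on vector ABA, and 30.01 and 427 in the overexpressor, and was 6.07-fold higher in vector plants. PUB43 read 60.5 and 163, 2.69-fold higher. PUB22 and PUB23 are close relatives that restrain immune and drought responses together, yet PUB22 was lower with ABA, at 62.6 and 15.6, and PUB23 higher, at 21.7 and 46.6. Both are dim, and in the overexpressor PUB22 was again lower whereas PUB23 was also lower, at log2 differences of -1.29 and -0.72. Among 11 autophagy genes ATG8H, a ubiquitin-like protein of the autophagosome, was 2.11-fold higher at 65.3 and 138. Its bright relative ATG8E stood at 1211 and 704, within 2-fold. No difference reached 2-fold among 21 ubiquitin-conjugating enzymes and ubiquitin proteases or among 15 serine carboxypeptidase-like proteins, with medians of -0.09 and -0.10. Over all genes 10.2% were at 2-fold and the median was -0.09.

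Of 8 aldehyde dehydrogenases 1 was higher with ABA. ALDH7B4, an aldehyde dehydrogenase that removes toxic aldehydes under drought and salt, read 107 on vector mock and 499 on vector ABA, 4.66-fold higher, and 303 and 691 in the overexpressor. The other 7 were within 2-fold. Methionine sulfoxide reductases repair oxidised methionine, and 2 of 5 were higher, with a median of 0.65. MSRB6 read 102 and 350.4, 3.43-fold higher, and 77.9 and 168 in the overexpressor. MSRB9 read 39.7 and 161, 4.06-fold higher, but its overexpressor mock signal of 177 was above the vector ABA signal. AT5G64120, annotated as peroxidase 71, read 149 and 326 and was the only one of 6 measured peroxidases at 2-fold. None of 5 glutathione transferases or of 11 glutaredoxins and thioredoxins reached 2-fold, beside 10.2% of all genes.

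The UDP-glycosyltransferases, which attach sugars to hormones and secondary metabolites, were the enzyme family with the most measured members, and were split. Of 28 measured, 5 were at least 2-fold higher and 3 lower, with a median of -0.23. The higher ones include UGT76B1, which passed the signal limit only through the overexpressor arrays. GT72B1, which glycosylates lignin precursors and foreign phenols, read 226 and 589, 2.60-fold higher, though both overexpressor arrays read 551 and 589. UGT72E1, which acts on coniferyl aldehyde, read 127 and 34.7, 3.66-fold lower, and 102 and 42.8 in the overexpressor. UGT85A4 read 115 and 23.2, 4.98-fold lower, and 68.5 and 25.6 in the overexpressor. Thus both of these kept the ABA arrays below the mock arrays. Of 11 cytochrome P450 genes, 3 were higher and 1 lower. All were from the CYP71B group, to which every measured P450 gene but CYP78A9 belonged. CYP71B22 read 151 and 36.6, 4.13-fold lower, while CYP71B23, CYP71B24 and CYP71B26 were 2.15-fold, 3.75-fold and 2.35-fold higher. In the overexpressor those 3 had log2 differences of -0.16, -0.46 and 0.40, and vector mock was the lowest array for each. For CYP71B22 vector mock was the only high array, since the overexpressor arrays read 40.5 and 32.8. Of 8 beta-glucosidases, which release compounds from their sugar conjugates, 2 were higher. BGLU40 read 208 and 730.3, 3.51-fold higher, and 147 and 847 in the overexpressor. BGLU25 read 147 and 332, 2.26-fold higher, but 580.0 and 424 in the overexpressor, with vector mock the lowest array.

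Among hormone genes other than those of ABA, 2 of 5 auxin genes and 1 of 4 gibberellin and brassinosteroid genes were at 2-fold, beside 10.2% of all genes. WES1, a GH3 enzyme that joins auxin to amino acids, read 41.9 and 149, 3.57-fold higher, and 33.0 and 126 in the overexpressor. GH3.9 of the same family read 49.8 and 18.5, 2.68-fold lower, with 25.3 and 25.6 in the overexpressor. GID1B, a gibberellin receptor, was 3.67-fold higher at 17.8 and 65.2, while its relative GID1A was within 2-fold at 86.4 and 53.8. The GID1B signal on overexpressor mock, 67.1, was as high as that of vector ABA.

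Transcription factors were thinly covered, and the brightest to differ was lower with ABA. AT5G61590, annotated as DEWAX, a repressor of wax synthesis of the ERF family, read 1481 on vector mock and 152 on vector ABA, 9.73-fold lower, and 994 and 245 in the overexpressor. Both ABA arrays lay far below both mock arrays. BZIP61 was the only one of 9 bZIP factors at 2-fold, at 155 and 54.1, 2.87-fold lower, and 108 and 34.98 in the overexpressor. Of 5 WRKY factors, 2 were higher. WRKY53, a factor known from leaf senescence and defence, read 59.5 and 166, 2.79-fold higher, and 126 and 222 in the overexpressor. WRKY6, known from senescence and phosphate supply, was under the floor on vector mock and at 45.0 on vector ABA. The mean of its vector signals was below the signal limit, so WRKY6 was compared only through the overexpressor arrays. None of 7 bHLH factors reached 2-fold, beside 10.2% of all genes. MYC4, a regulator of jasmonate responses, was the lowest bHLH factor, with a log2 difference of -0.82 in vector plants and -1.46 in the overexpressor.

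**Figure D2:**
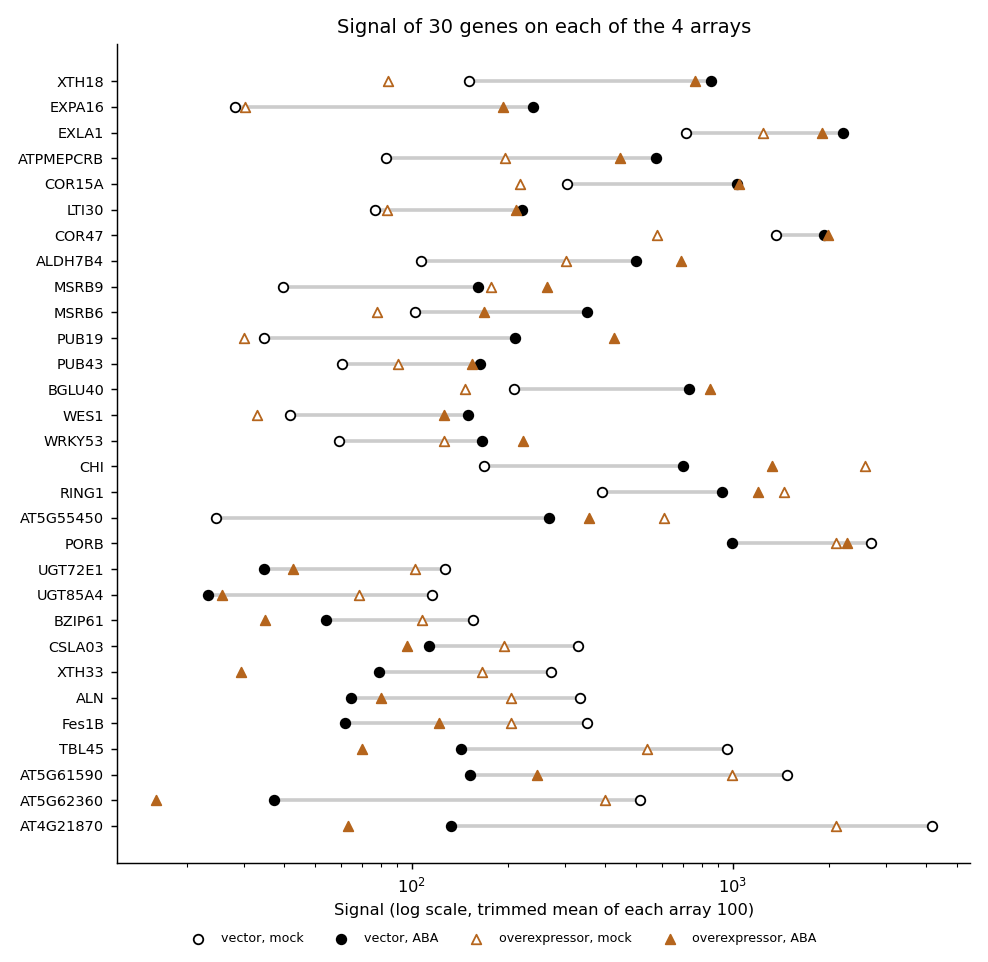
Signal of 30 genes on a log axis, with circles for the vector arrays and triangles for the overexpressor arrays, open for mock and filled for ABA; the grey bar joins the vector pair. Genes such as XTH18, COR15A and AT4G21870 have both filled symbols on one side of both open ones, whereas for CHI, RING1 and AT5G55450 the open circle of vector mock lies below the other 3 symbols.

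For some of the named genes that were higher with ABA, vector mock was the lowest of the 4 arrays and the overexpressor arrays did not differ in the same way. CHI, a chitinase, read 168 on vector mock and 701 on vector ABA, 4.18-fold higher, but 2575 and 1328 in the overexpressor. RING1, a ubiquitin ligase linked to cell death, read 391 and 929 in vector plants and 1444 and 1198 in the overexpressor. The gene with the highest measured difference, AT5G55450, read 24.6 and 267, 10.8-fold higher, and 609 and 357 in the overexpressor. AT1G57630 followed at 32.9 and 337, and read 486 and 324 in the overexpressor. AT5G17760 was under the floor on vector mock, at least 10.2-fold higher at 136 on vector ABA, and at 451 and 316 in the overexpressor. In each of these vector mock was the lowest array. In all but AT1G57630 vector ABA was also below both overexpressor arrays. Whether the vector mock array, the genotype or the ABA spray sets such a difference cannot be told apart with 1 array per group. The calcium sensor CML41 and the glycosyltransferase UGT87A2 had the same order, at 46.1 and 92.4 and at 81.4 and 212 in vector plants, against 151 or more on every overexpressor array. The tetraspanins, membrane proteins of which 2 of 7 reached 2-fold and whose median was 0.67, included TET3 at 57.9 and 116, with 132 and 171 in the overexpressor. TET2, the other at 2-fold, was under the floor on vector mock and read 27.9 on vector ABA. The mean of its vector signals was below the signal limit, so TET2 was compared only through the overexpressor arrays.

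The opposite case, in which both genotypes showed the same large difference, was found among the highest genes too. ZW9 read 55.5 on vector mock and 499.5 on vector ABA, 8.99-fold higher, and 34.1 and 396 in the overexpressor. AT1G73480 read 80.6 and 568, and 88.1 and 623, with log2 differences of 2.82 in each genotype. AT5G15950 read 144 and 634, and 135 and 499. For these 3 genes the mock arrays and the ABA arrays did not overlap.

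The 2 largest differences among named loci were toward lower signal, in genes that were bright on the mock array. AT4G21870 read 4166 on vector mock and 132 on vector ABA, 31.5-fold lower, and 2095 and 63.5 in the overexpressor. AT5G62360 read 513 and 37.4, 13.7-fold lower, and 401 and 15.9 in the overexpressor, and its measured neighbour on the chromosome, AT5G62350, had a log2 difference of -1.59. Further down, AT5G07580 read 797 and 113, 7.05-fold lower, and 442 and 104 in the overexpressor. The tables used here give no function for these 4 loci.

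Genes with a described function among the lowest included enzymes and a chaperone partner. ALN, the allantoinase that opens the ring of allantoin during the reuse of purine nitrogen, read 335 and 64.8, 5.16-fold lower, and 204 and 80.2 in the overexpressor. Fes1B, a nucleotide exchange factor of HSP70 chaperones, read 350.4 and 62.2, 5.64-fold lower, and 205 and 121 in the overexpressor. Both thus had each ABA array below each mock array. PRA1.H, a protein of vesicle traffic, was at least 4.31-fold lower, from 57.1 to under the floor, but read 71.5 and 91.4 in the overexpressor. It was the only one of 25 vesicle traffic genes at 2-fold. Among 14 microtubule-linked TRM and IQD proteins, TRM21 and IQD19 were lower, at 218 and 107 and at 118 and 54.6. In the overexpressor TRM21 read 133 and 125, while IQD19 was higher with ABA, at 32.5 and 62.0, a log2 difference of 0.93.

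Photosynthesis genes were slightly lower with ABA in vector plants, nearly all by less than 2-fold. All 11 measured nuclear genes for photosystem, light-harvesting and Calvin cycle proteins had differences below 0, from -0.39 to -0.01, with a median of -0.23. In the overexpressor all 11 were above 0, with a median of 0.42. The 69 measured genes of the chloroplast genome had a median of -0.20, with 52 below 0 and none at 2-fold, between -0.94 for the ribosomal protein gene rps14 and 0.70 for psbB, a core protein of photosystem II. In the overexpressor 59 of the 69 were above 0, with a median of 0.32. These lists therefore had opposite signs in the 2 genotypes, as the 18 spike-in probe sets did with medians of -0.58 and 0.85, and the part of the arrays in this was not tested. Over all genes 10.2% were at 2-fold, the vector median was -0.09, and 55.3% were above 0 in the overexpressor. Among genes with 1000 or more on the brighter vector array, the median was -0.12 and 67.3% were above 0 in the overexpressor. Transcripts of 1 genome share polycistronic units, so the 69 are not independent of each other. PORB, which makes chlorophyllide in the light, was the exception in size, at 2694 on vector mock and 997 on vector ABA, 2.70-fold lower. In the overexpressor it read 2091 and 2278, so vector ABA was the only low array.

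Several other groups held no gene at 2-fold. With 10.2% of all genes at 2-fold, lists this small can hold none without differing from all genes. None of 12 sugar transporters, 9 of them SWEETs, reached 2-fold, although 8 of the 9 SWEETs were below 0 and their median was -0.40, against 0.53 in the overexpressor. SWEET2, a vacuolar sugar transporter, was the lowest at 209 and 109. None of 8 tubulins and actins, 5 histones, 5 pentatricopeptide proteins or 9 genes for RNA polymerases and splicing reached 2-fold. The histones had the highest median of these, at 0.49, and -0.32 in the overexpressor. Of 7 glutamate receptor-like channels 1 was higher, GLR2.7, at 112 and 296. In the overexpressor it read 233 and 258, a log2 difference of 0.15, and vector mock was its lowest array.

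**Figure D3:**
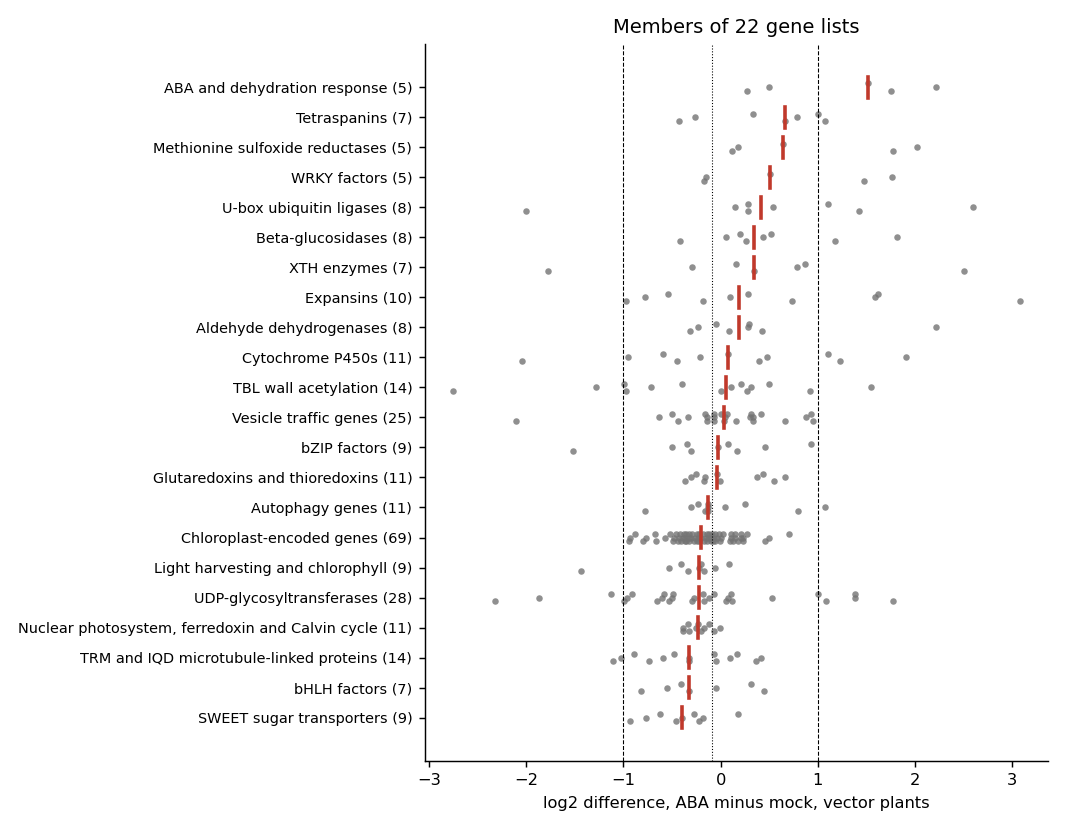
Log2 difference of ABA minus mock in vector plants for the measured members of 22 gene lists, with the number of members in parentheses, a grey point for each gene and a red bar for the median; dashed lines mark 2-fold and the dotted line the median of all genes, -0.09. The ABA and dehydration list has its median at 1.52, beyond 2-fold, while the chloroplast-encoded genes lie within 2-fold throughout.

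Few of the brightest genes reached 2-fold. Of 223 genes whose brighter vector array read 1000 or more, 6 were higher and 10 lower. The 6 higher were COR15A, EXLA1, AT2G38870, AT1G49500, AT3G09440 and AT4G34150. AT2G38870 read 389 and 1176 in vector plants and 421 and 668 in the overexpressor, and AT1G49500 read 515 and 1178, and 455 and 983. AT3G09440 was the exception in the other genotype, at 1189 and 2711 but then at 2198 and 1607. The lower genes of this brightness differed by more than the higher ones. After AT4G21870 and DEWAX they were led by AT5G40450 at 1191 and 271, AT5G14120 at 2059 and 496, and AT4G34950 at 2146 and 559. All 3 were at least 2-fold lower in the overexpressor as well, at -1.12, -2.05 and -1.26 on the log2 scale.

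How far a 2-fold difference could be relied on was read from how often it came back between the overexpressor arrays, where 5.01% of all genes were higher with ABA by 2-fold or more and 3.55% were lower by as much. Of the 355 higher genes, 221 were above 0 there, 71 at 2-fold, and 14 were at least 2-fold lower. Of the 390 lower genes, 214 were below 0, 76 at 2-fold, and 28 were at least 2-fold higher. Over all genes 55.3% were above 0 and 44.7% below 0 in the overexpressor. A difference that did not come back may belong to the genotype or to an array, and these cannot be told apart.

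Recurrence was more frequent at higher signal. Where the brighter vector array was under 50, 154 of 1365 genes were at 2-fold, and 37.0% of them had the same direction in the overexpressor, with 6.49% at 2-fold in that direction. The signal limit uses all 4 arrays, so 82 of the 745 genes at 2-fold passed it only through the overexpressor arrays, and in this band 17.6% of all genes were at 2-fold in the overexpressor and 67.9% above 0. With the limit on the vector arrays alone, a choice made after seeing the data, 37.8% of 127 genes in the band kept their direction. From 50 to 100, 277 of 2485 genes were at 2-fold, and the shares were 48.7% and 14.8%. In both of these bands fewer genes kept their direction than did not. From 100 to 200, 144 of 1739 genes were at 2-fold, with 72.2% and 24.3%. From 200 to 500 the shares were 80.99% and 30.6% of 121 genes, and from 500 to 1000 they were 81.8% and 45.5% of 33 genes. Among the 16 genes at 2-fold with a signal of 1000 or more, 14 had the same direction and 9 reached 2-fold. The share of all genes above 0 in the overexpressor also varied over these bands, between 43.5% and 67.9%. The correlation of the differences in the 2 genotypes, taken across genes, which are not independent, was -0.11 in the dimmest band and 0.65 in the brightest.

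**Figure D4:**
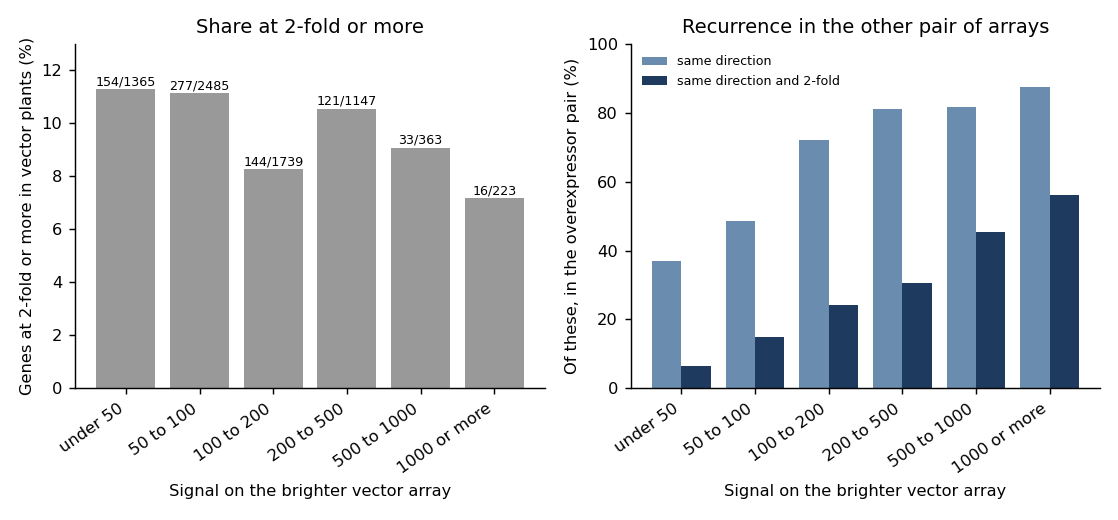
Left, the percent of genes at 2-fold or more in vector plants in each band of signal on the brighter vector array, with the counts above the bars. Right, the percent of those genes with the same direction (light bars) and the same direction at 2-fold (dark bars) in the overexpressor pair, which goes from 37.0% to 87.5% and from 6.49% to 56.25%.

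Recurrence by direction differed between bright and dim genes. Where the brighter array was 100 or more and the difference at least 4-fold, all 23 lower genes were also below 0 in the overexpressor, with a median of -1.62. Of 34 higher genes with the same limits 25 were above 0, with a median of 0.72. For differences of a log2 of 1 to 1.5 at this signal, 140 of 194 genes kept their direction, and under a signal of 100 it was 117 of 275, made up of 53 of 102 higher and 64 of 173 lower genes. The strictest reading, a signal of 100 or more on both vector arrays, leaves 2728 genes, of which 74 (2.71%) were higher and 47 (1.72%) lower. Among genes described above, XTH18, ALDH7B4, MSRB6, BGLU40, COR15A and EXLA1 are in the first group, and AT4G21870, DEWAX, TBL45, CSLA03, AT5G07580 and PORB in the second. All of these except PORB, at 0.12, kept their direction in the overexpressor. The first group also holds CHI, RING1, BGLU25, AT3G09440 and GT72B1, with overexpressor log2 differences of -0.96, -0.27, -0.45, -0.45 and 0.10. A signal of 100 on both vector arrays therefore did not ensure recurrence.

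Separate probe sets of the same gene gave a check within the 2 vector arrays. For 73 genes with more than 1 probe set past the signal limit, the median gap between their log2 differences was 0.263, and 6 genes had a gap of 1 or more, up to 1.92. Of 11 genes with any probe set at 2-fold, 8 had all probe sets of 1 sign and 3 had all at 2-fold. AT1G22330 was among these 3, with log2 differences of -1.47 and -1.45. By contrast AT1G26300 had -1.10 for a probe set at 119 on mock and 0.31 for another at 32.6. Where every probe set reached 100 on its brighter array, for 23 genes, the median gap was 0.211. These probe sets share the RNA and the array, so their agreement covers the probes alone, and AT1G22330 and AT1G26300 were picked after their values were seen.

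Pairs of neighbouring genes were counted by their differences. Of 2088 neighbouring pairs with both genes measured, 415 had at least 1 gene at 2-fold, and both were higher in 9, both lower in 14 and opposite in 12. GT72B1 and TBL26 were such a pair with both higher, and CYP71B22 and CYP71B23 an opposite one. Over all genes 4.85% were higher by 2-fold or more and 5.33% lower by as much. Whether neighbours differed together more often than these shares give was not tested. The median gene length was 2089.5 bases for higher genes, 2198 for lower genes and 2305 for all genes.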

How the data were processed

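RNA of rosette leaves was hybridised to 4 Affymetrix ATH1 arrays, 1 per group. The authors deposited linear signal intensities; the submitters' processing notes name MAS5, whose version is not given in the sources used here. Since MAS5 brings arrays to a common mean, total RNA cannot be compared, and the number of arrays limits the precision.

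From the deposited intensities, 2 percent of the 22746 non-control probe sets were trimmed at each end and each array was scaled to a mean of 100. A floor was set at the 25th percentile of all values (13.3) before taking log2. Probe sets had to reach, in their mean over the arrays, the 40th percentile of all values (29.0), and the brightest probe set stood for a gene. The platform annotation pairs 13513 probe sets with 1 gene, 503 with several and 8730 with none; 13436 matched the TAIR10.1 RefSeq table, used for names and gene order only. Of 88 gene lists, 46 had at least 3 measured genes, 15 had 1 or 2, and 27 had none.

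With 1 array per group no test was made. A fold against the floor is written "at least". Genes at 2-fold were counted, and recurrence was read in the overexpressor pair. Named genes are the 12 highest and 12 lowest; the 8 highest and 8 lowest with 100 or more on both vector arrays; the 6 highest and 6 lowest at 1000 or more; the ABA list; and, for each described list, its extremes and its members at 2-fold. Other genes named serve as tissue or list references. The members and lists were chosen with earlier results of these data known, and list patterns were corrected and 8 lists added after the member names were seen. The steps that take the difference and count genes were run on a simulated pair of arrays. Changes were planted there only at a signal of 100 or more, so recovery of changes in dimmer genes was not tested. Alternatives were another scaling, floor, filter or unit. Python 3.11.15, numpy 2.4.6 and pandas 2.3.3 were used.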

Additional observations from a re-analysis of the deposited data

Results flagged for a closer look

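In 3 of the 147 named genes the vector pair and the overexpressor pair differed by at least 2-fold in opposite directions; the difference between genotypes was not tested, since each group has 1 array. PDF1.2, a defensin of the jasmonate and ethylene response, had a log2 difference of -1.36 in vector plants (52.2 on mock, 20.4 on ABA) and 1.26 in the overexpressor (37.8 and 90.3). Its near-identical relative PDF1.2b gave -1.26 (40.3 and 16.8) and 1.32 (37.0 and 92.0), and with near-identical sequences the pair is uncertain as separate genes. UGT76B1, which glycosylates salicylic acid and isoleucic acid, gave 1.77 from a vector mock signal under the floor to 45.2 on ABA, and -1.81 in the overexpressor (129.6 and 37.0). For PDF1.2b and UGT76B1 the mean of the vector signals was below the signal limit, so both entered the comparison only through the overexpressor arrays. All 3 were under 100 on both vector arrays.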

How the results depend on the processing

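No paired analysis was possible because each group has 1 array. The counts of 355 higher and 390 lower genes depended on the treatment of dim genes: they were 233 and 177 with a pseudocount of 16 in place of the floor, 181 and 133 with the floor at 50, and 148 and 85 with the signal limit at 100. Without a limit the lower genes numbered 814. With all probe sets as units, named or not, the counts were 781 and 701. Quantile normalization gave 407 and 301, which puts 57.5% of the genes at 2-fold on the higher side against 47.7%. It also raised the share of lower genes with the same direction in the overexpressor from 54.9% to 68.8%; this alternative was chosen after seeing the data. The cause of that move was not tested. The other counts, with arrays centred on the median, signals as deposited, the limit on the vector arrays alone or the mean of probe sets, stayed within 1.5 times. No alternative moved the median of all genes by over 0.087 on the log2 scale. Of 1261 values for the 147 named genes under alternatives, 1182 moved by less than the median absolute deviation, and the 79 that moved more did so with the floor at 50 or the pseudocount of 16. In 3 genes near 0 (SBPASE, HON4 and AT1G54410) 4 values changed sign with another scaling, and in none of the genes at 2-fold. The main limits are 1 array per group, no detection calls, and sparse naming of probe sets.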

Other observations

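Probe sets with no gene in the annotation used here were more often higher than genes were, and slightly less often lower. Of 5976 such probe sets past the same signal limit, 408 (6.83%) were higher by 2-fold or more with ABA in vector plants. Lower by as much were 295 (4.94%), and the extremes were 4.87 and -4.83 on the log2 scale. For genes, each counted by its brightest probe set, the shares were 4.85% higher and 5.33% lower. In the overexpressor pair 108 of the 408 and 88 of the 295 were also at 2-fold in the same direction. For genes it was 71 of the 355 higher and 76 of the 390 lower.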
